A study of Mus musculus with 6 samples.

Results

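The muscle splicing regulators are 10 genes whose proteins bind pre-mRNA and decide which exons are kept, and which have known roles in heart or skeletal muscle: Rbm20, Rbm24, Celf1, Celf2, Mbnl1, Mbnl2, Rbfox2, Qk, Ptbp1 and Srsf1. The set was drawn up with earlier results of these data known. Its members were then matched by name to the gene column of the deposited expression table, and all 10 were found among its 23284 genes, with 1 row each. The RNA-seq compared the ventricles of chimeric C57BL/6 mouse embryos at embryonic day (E) 9.5, with 3 WT embryos and 3 Tbx5ua-knockdown (KD) embryos, whose genotype is given as Tbx5ua -/-. Tbx5ua is a long non-coding RNA transcribed divergently from a promoter of the transcription factor gene Tbx5, and the comparison asked which genes are affected when it is knocked down. In KD embryos both alleles carried 3 tandem polyadenylation signals in Tbx5ua, which stop its transcription early. All embryos were made by tetraploid complementation, in which the embryo proper comes from the injected ES cells, so WT and KD embryos alike were chimeras. The KD ES cells were clonal, and the sources used here do not say which clone gave the sequenced embryos. Nothing says whether the embryos of a group came from separate litters.

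Alternative splicing changes strongly while the heart forms, and the same genes produce embryonic and adult forms of titin, troponin T, tropomyosin and many calcium-handling proteins. RBM20 and RBM24 are RNA recognition motif proteins of striated muscle, RBM20 being best known for its control of titin exons. CELF proteins favour embryonic isoforms and MBNL proteins favour adult isoforms of many of the same exons, and RBFOX and QK proteins bind short defined sequences beside muscle exons. PTBP1 mostly represses exons, while SRSF1 mostly promotes their inclusion. Gene-level values, as here, give the amount of RNA from each regulator's gene and not the splicing of any target.

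The table gives 1 value in FPKM (a fragment count scaled for transcript length and for library size) for the WT group and 1 for the KD group. It gives no values of single embryos, so no SD can be stated and the spread between embryos is unknown for each value below. Read depth is also unknown. The log2 ratio was computed as KD over WT from these 2 values with no pseudocount, and the authors' own comparison columns were not used, so a gene that lies past a fold is described and not tested. The 11606 genes with at least 1 FPKM in either group serve as the background. Their median log2 ratio was 0.00. Markers of the labelled tissue were present, since all 12 cardiomyocyte markers examined had at least 224 FPKM in WT, and their log2 ratios ran from -0.25 to 0.22. The skeletal muscle factors Myod1, Myog, Myf5 and Pax7 were listed at 0 in both groups, and so were the neural factors Sox1, Sox2 and Neurod1. The fifth skeletal muscle marker, the creatine kinase gene Ckm, which heart muscle also expresses, stood at 1.78 FPKM in WT against 2.63 FPKM in KD (log2 ratio 0.56). Tbx5ua itself was not analysed here, so the knockdown was not checked in these values.

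The 250 bases before the start site are shown for 3 members. Mbnl2 and Celf2 are shown because they had the largest ratios of the 10, and Rbm24 because its window holds the letters of a T-box site, the element that TBX5 and its relatives bind. Of the 5 Celf2 windows, the one shown precedes the start site at which the table's Celf2 row begins. It lies inside the longer Celf2 gene of GENCODE M21, which reaches 7509563, so these bases are also part of a transcribed region. The other 4 Celf2 windows hold none of the motifs searched. The printed Mbnl2 and Rbm24 windows end before the starts of these genes in GENCODE M21, at 120275669 and 46418434. The sequences are from RefSeq on GRCm38.p6, read 5′ to 3′ on the strand of the gene. Mbnl2 lies on the plus strand at chr14:120275419-120275668, Celf2 on the minus strand at chr2:7396199-7396448, and Rbm24 on the plus strand at chr13:46418050-46418299. Capitals mark the motifs found on either strand: AGGTGT for T-box factors, TATAAA for the TATA box, AGATAA for GATA factors and TAAAAATA for MEF2 factors.
Mbnl2: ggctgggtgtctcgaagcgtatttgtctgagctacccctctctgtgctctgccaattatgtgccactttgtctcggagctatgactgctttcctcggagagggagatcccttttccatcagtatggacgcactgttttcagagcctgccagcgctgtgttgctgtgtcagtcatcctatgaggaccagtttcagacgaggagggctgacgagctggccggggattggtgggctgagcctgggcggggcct
Celf2: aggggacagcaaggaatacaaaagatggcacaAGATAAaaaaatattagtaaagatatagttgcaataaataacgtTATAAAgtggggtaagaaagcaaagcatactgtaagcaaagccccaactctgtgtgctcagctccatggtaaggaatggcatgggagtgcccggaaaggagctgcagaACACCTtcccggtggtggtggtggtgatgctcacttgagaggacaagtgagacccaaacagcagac
Rbm24: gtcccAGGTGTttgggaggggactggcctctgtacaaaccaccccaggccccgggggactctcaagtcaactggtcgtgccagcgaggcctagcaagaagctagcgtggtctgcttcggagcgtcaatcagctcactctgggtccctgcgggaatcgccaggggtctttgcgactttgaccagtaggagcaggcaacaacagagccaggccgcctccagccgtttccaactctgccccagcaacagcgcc

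RefSeq windows were at hand for 8 of the 10 members, with 13 windows in all. AGGTGT was in 1 of the 5 Celf2 windows, on the minus strand of the window as ACACCT, and in the Rbm24 window, against 11.8% of all 32851 windows of the same length. The Mbnl2 window held none of the 4 motifs, and TAAAAATA was in none of the 13 windows, against 2.45% of all windows. TATAAA was in the Celf2 window printed above and in 1 Mbnl1 window, where matches on both strands overlap, against 12.4% of all windows. AGATAA was in the printed Celf2 window alone, against 9.99% of all windows. The 3 printed windows differed in base composition, with 57.2% G and C in Mbnl2, 45.6% in Celf2 and 62.4% in Rbm24, where the median of all windows was 52.4%. The most G and C of any member's window was in Qk, with 84.8% and 52 CpG dinucleotides. These matches describe the letters only.

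All 10 regulators were expressed in the E9.5 ventricle, at WT levels from 6.60 FPKM for Celf2 to 89.8 FPKM for Ptbp1. The WT order from high to low was Ptbp1, Qk, Celf1, Srsf1, Rbm24, Mbnl2, Rbfox2, Mbnl1, Rbm20 and Celf2. In KD 2 pairs of neighbours changed places, with Rbm24 above Srsf1 and Celf2 above Rbm20. With no spread between embryos it cannot be said which neighbours in this order differ. In total the 10 genes summed to 318 FPKM in WT against 329 FPKM in KD.

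Past a 1.5-fold difference in either direction there were 0 of the 10 members, where 8.18% of the 11606 background genes lay past it (4.84% higher and 3.33% lower in KD). A lower threshold was met where the larger of the 2 values exceeded the smaller by at least 25%. Past 25% there was 1 member, Mbnl2, which was higher in KD, where 22.2% of background genes lay past it (12.6% higher and 9.64% lower). Neither count stands above the background share. Of the members, 6 were higher and 4 lower in KD, and their median log2 ratio was 0.02. The median size of the log2 ratio, ignoring direction, was 0.06 for the members and 0.15 for the background. The size of ratios depends on level in these data. Among genes with 1 to 10 FPKM in WT, 31.7% lay past 25%, against 9.55% of those with 10 to 100 FPKM and 5.69% of those with more. Of the members, 3 fell in the lowest of these bands and 7 in the middle one.

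**Figure D1:**
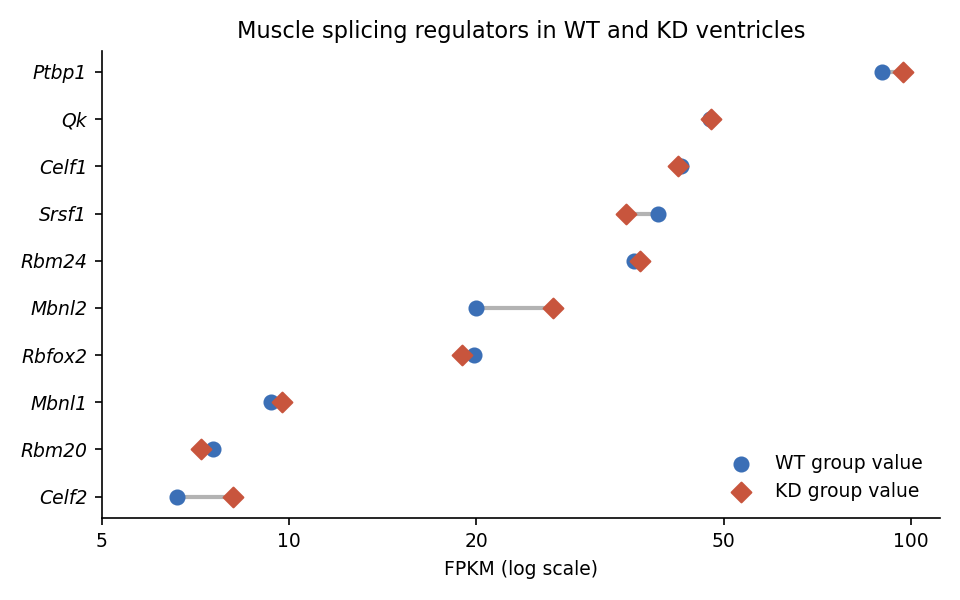
Group values of the 10 muscle splicing regulators in FPKM on a log axis, circles for WT and diamonds for KD, 1 value per group from 3 embryos and no error available. Mbnl2 (20.01 and 26.6 FPKM), Celf2 (6.60 and 8.12) and Srsf1 (39.2 and 34.8) show the widest gaps, and the symbols of Qk and Celf1 nearly coincide.

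**Figure D2:**
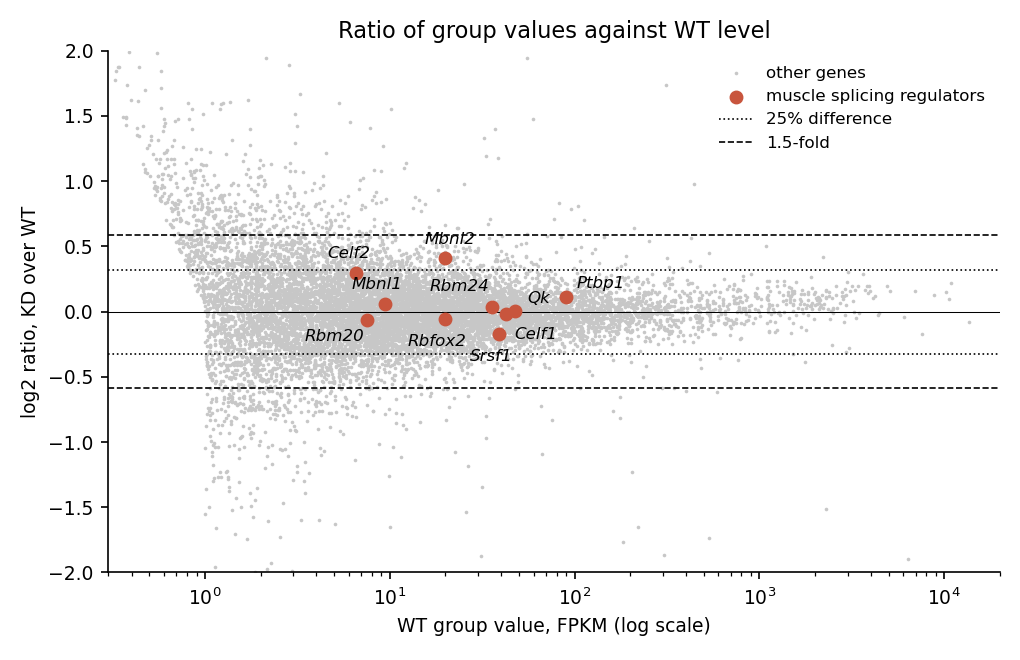
The log2 ratio of KD over WT against the WT level in FPKM (log axis) for 11504 genes, with the 10 members in red, dotted lines at a 25% difference and dashed lines at 1.5-fold in each direction; 44 genes lie outside the axes and 58 with 1 group at 0 have no ratio to draw. Mbnl2, at 0.41, is the 1 member past a dotted line, and the grey cloud narrows towards higher levels.

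Of the 10 members, the muscleblind gene Mbnl2 had the largest log2 ratio in size, whereas the largest difference in FPKM was that of Ptbp1 (7.40 against 6.54 FPKM for Mbnl2). The zinc finger proteins of the family bind YGCY-type sites and drive the switch from fetal to adult isoforms. Mbnl2 (plus strand of chromosome 14, 120275669 to 120431698 on mm10) stood at 20.01 FPKM in WT against 26.6 FPKM in KD, a 1.33-fold higher value (log2 ratio 0.41). In size this ratio was exceeded by 15.5% of all background genes and by 5.09% of those with 10 to 100 FPKM in WT. Mbnl1, on chromosome 3 from 60472830 to 60629748, is the member of the family most studied in heart and skeletal muscle. It stood at 9.37 FPKM in WT against 9.76 FPKM in KD (log2 ratio 0.06), so the larger value of the pair belonged to Mbnl2 in both groups. Mbnl3, the third muscleblind gene and not among the 10, stood at 4.24 FPKM in WT against 3.79 FPKM in KD (log2 ratio -0.16). Mbnl2 thus held 59.5% of the summed muscleblind value in WT and 66.2% in KD, while Mbnl1 went from 27.9% to 24.3% and Mbnl3 from 12.6% to 9.46%. The sum over the 3 genes was 33.6 FPKM in WT and 40.1 FPKM in KD.

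The CELF genes, whose proteins bind GU-rich sequences and often act against MBNL proteins, differed from each other in level more than any other pair of members examined. Celf1 (chromosome 2, 90940397 to 91019497) stood at 42.7 FPKM in WT against 42.2 FPKM in KD (log2 ratio -0.02). Celf2 (minus strand of chromosome 2, 6539699 to 7396198) stood at 6.60 FPKM in WT against 8.12 FPKM in KD, a 1.23-fold higher value (log2 ratio 0.30) just short of 25%. Among background genes with 1 to 10 FPKM in WT, 35% had a larger ratio in size, so the Celf2 ratio lay well inside what genes of its level showed. The ratio of Celf1 to Celf2 was 6.47 in WT and 5.19 in KD. The table lists a second gene under the same locus as Celf2, namely 5031426D15Rik, which stood at 1.72 FPKM in WT against 0.924 FPKM in KD (log2 ratio -0.90). In the GENCODE M21 annotation a long non-coding RNA on the opposite strand, Gm26565, covers 7.58% of the exonic bases of Celf2. Since the Smart-Seq2 protocol does not keep the strand, reads from such overlaps cannot be told apart, and the Celf2 value is less certain for it. For Mbnl2 the corresponding share was 0.717%.

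Markers of another cell type stood higher in KD beside these values. Of 7 epicardial markers, 7 were higher in KD and 6 lay past 1.5-fold, where 4.84% of background genes were higher past that fold. Among background genes with 1 to 10 FPKM in WT, 10.8% lay past 1.5-fold in either direction. The log2 ratios of the epicardial markers ran from 0.48 to 1.41. Their levels summed to 51.5 FPKM in WT against 106 FPKM in KD, with none at 0 and Aldh1a2 at 0.872 FPKM in WT. Of 9 endocardial and endothelial markers, 6 were higher and 3 lower, with sums of 226.9 and 258.7 FPKM. Of 7 markers of smooth muscle and mesenchyme, 6 had at least 1 FPKM in either group, and 4 of these were higher and 2 lower in KD, while the summed level was 3473 FPKM in WT and 2815 FPKM in KD. Nearly all of that sum came from the smooth muscle genes Acta2 (log2 ratio -0.28) and Tagln (-0.61), which were lower in KD. Of these, Tagln lay past 1.5-fold. The mesenchymal genes were higher in KD, with log2 ratios of 1.52 for Pdgfra, 1.40 for Col1a1, 0.42 for Col3a1 and 0.06 for Pdgfrb. Of these, Pdgfra and Col1a1 lay past 1.5-fold, from low WT levels of 0.97 and 1.76 FPKM. The 6 neural markers, 3 of them at 0, summed to 13.7 and 27.9 FPKM, nearly all of it from the tubulin gene Tubb3 (log2 ratio 1.14). The neural RNA-binding protein gene Elavl4 was lower in KD, at 1.38 and 0.773 FPKM (log2 ratio -0.84). Erythroid markers (7 genes) summed to 11450 and 11530 FPKM and leukocyte markers (5 genes) to 23.2 and 19.4 FPKM, and the 5 hepatic and yolk sac markers stayed below 1 FPKM each. The part of these cell types in the values of Mbnl2 and Celf2 was not tested. In whole ventricles a different number of cells of a type and a different amount of RNA per cell cannot be told apart.

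The RNA recognition motif proteins of striated muscle showed nearly the same value in both groups. Rbm20 (chromosome 19, 53677306 to 53867080) stood at 7.56 FPKM in WT against 7.23 FPKM in KD (log2 ratio -0.07). Rbm24, on chromosome 13 from 46418300 to 46431099, promotes muscle exon inclusion early in heart development. It stood at 35.9 FPKM in WT against 36.7 FPKM in KD (log2 ratio 0.03). Rbm24 was therefore the more abundant of the pair by 4.75 times in WT and 5.08 times in KD. Rbm38, the close relative of Rbm24, was more abundant than any member, at 165.2 FPKM in WT against 149.2 FPKM in KD (log2 ratio -0.15). Neither Rbm20 nor Rbm24 shares its locus in the table with another gene.

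Rbfox2, whose protein binds UGCAUG beside regulated exons, lies on the minus strand of chromosome 15 from 77078990 to 77307053. It stood at 19.8 FPKM in WT against 19.0 FPKM in KD (log2 ratio -0.06). The other RBFOX genes were scarce in both groups, with 0.331 FPKM for Rbfox1 and 0.0968 FPKM for Rbfox3 in WT. Qk encodes the STAR-domain protein quaking, needed for vascular and muscle development, and lies on the minus strand of chromosome 17 from 10206471 to 10319361. It stood at 47.5 FPKM in WT against 47.6 FPKM in KD (log2 ratio 0.00), the smallest difference of the 10, and 98.7% of background genes had a larger ratio in size. Scaling both groups to the same sum, or subtracting the median of all genes, turned the sign of the Qk ratio.

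Ptbp1, a repressor of tissue-specific exons, was the most abundant member. It stood at 89.8 FPKM in WT against 97.2 FPKM in KD (log2 ratio 0.11). Its row in the table carries a locus of 672 kb on chromosome 10, from 79697305 to 80369637, which 45 other genes share, while GENCODE M21 places Ptbp1 alone from 79854427 to 79864771. There 3 genes on the opposite strand overlap its exons, Gm17134 over 9.22%, E130317F20Rik over 6.22% and Plppr3 over 5.30% of its exonic bases, so its value is also less certain. Its paralogue Ptbp2 stood at 31.0 FPKM in WT against 28.6 FPKM in KD (log2 ratio -0.11), and the ratio of Ptbp1 to Ptbp2 was 2.90 in WT and 3.39 in KD. Srsf1, an SR protein that promotes exon inclusion and controls the embryonic to adult splicing of Camk2d in heart, lies on chromosome 11 from 88047671 to 88053757. It stood at 39.2 FPKM in WT against 34.8 FPKM in KD, the lowest log2 ratio of the members at -0.17, and 34% of genes with 10 to 100 FPKM in WT had a larger ratio in size.

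**Figure D3:**
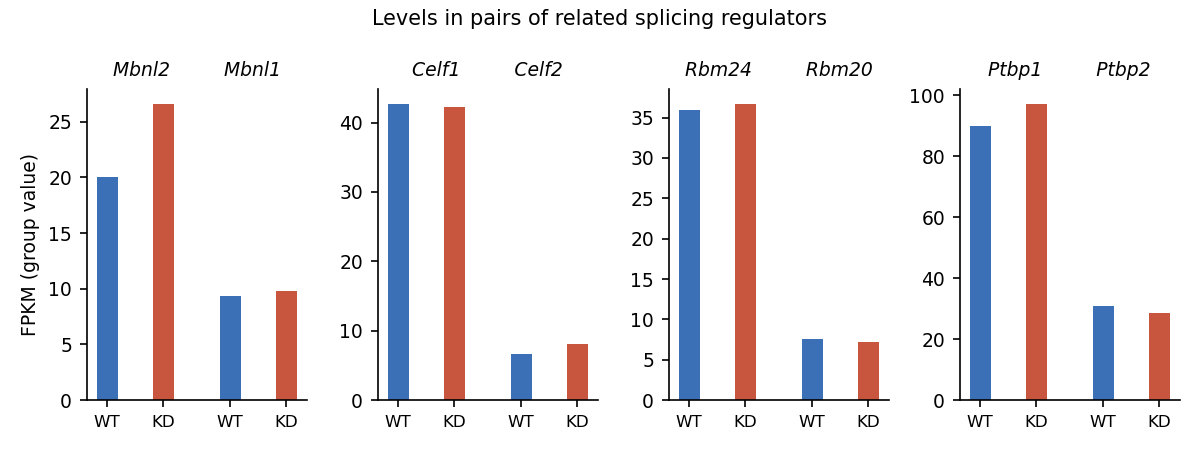
Bars of the FPKM group values in WT (blue) and KD (red) for 4 pairs of related regulators, each panel with its own axis from 0 and no error available. Mbnl2 stands above Mbnl1, Celf1 above Celf2, Rbm24 above Rbm20 and Ptbp1 above Ptbp2 in both groups, with ratios in WT of 2.13, 6.47, 4.75 and 2.90.

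The median size of the log2 ratio was larger in each of the other splicing lists examined than the 0.06 of the members, at 0.08 for the other SR protein and Tra2 genes, 0.08 for the hnRNP genes, 0.08 for the core spliceosome, 0.10 for the splicing targets, 0.13 for the paralogues and relatives and 0.31 for the SR protein kinases. Background genes had a median size of 0.12 at 10 to 100 FPKM in WT and 0.09 at higher levels, and all 32 core spliceosome genes and 21 of the 24 hnRNP genes were at 10 FPKM or more in WT. Past 25% lay 22.2% of all background genes, but 9.55% at 10 to 100 FPKM in WT and 5.69% at higher levels. The counts of 0 past 25% below are therefore not read as a trait of these lists. Among 13 paralogues and close relatives, 6 had at least 1 FPKM in either group, and 0 of these lay past 25%. Their extremes were Khdrbs3 (log2 ratio 0.22) and Ptbp3 (0.11, listed under its older symbol) on the higher side and Mbnl3 (-0.16) and Rbm38 (-0.15) on the lower side. Of 12 other SR protein genes and Tra2 genes 11 were kept, and 0 lay past 25%. Srsf9 (log2 ratio 0.27) and Srsf5 (0.15) were highest and Tra2a (-0.31) and Srsf3 (-0.21) lowest. All 24 hnRNP genes were kept and 0 lay past 25%, with Pcbp1 (0.25) and Hnrnpa0 (0.18) highest and Hnrnph3 (-0.22) and Hnrnpf (-0.17) lowest. The core spliceosome is the machinery that carries out splicing itself. Of its 32 genes 0 lay past 25%, but 28 were lower and 4 higher in KD, with a median log2 ratio of -0.07, where 49.1% of background genes were lower. Prpf8 (-0.24) and Snrpd3 (-0.23) were its lowest and Prpf19 (0.11) and Sf3b2 (0.04) its highest. Scaling both groups to the same sum lowers every log2 ratio by 0.03, and the members with it.

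The kinases that phosphorylate SR proteins, SRSF1 among them, had the largest share past 25% of the splicing lists, with 3 of 7 (42.9%, against 22.2% of the background), and 0 of 7 lay past 1.5-fold, against 8.18% of the background. Clk1 stood at 49.3 FPKM in WT against 33.9 FPKM in KD (log2 ratio -0.54). Clk4 stood at 19.98 FPKM in WT against 14.1 FPKM in KD (log2 ratio -0.51). In the other direction Clk2 stood at 3.50 FPKM in WT against 4.64 FPKM in KD (log2 ratio 0.41), and Srpk2 had 7.81 and 9.67 FPKM (0.31). Clk3, Srpk1 and Srpk3 had log2 ratios of -0.17, -0.14 and -0.14.

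Of 32 genes known as splicing targets of these regulators in muscle 31 were kept, and 5 lay past 25% (2 higher and 3 lower), or 16.1% against 22.2% of the background. Past 1.5-fold lay 1 of the 31 (3.23%, against 8.18% of the background), Atp2a1, the fast-muscle calcium pump gene spliced by MBNL proteins. It was near the 1 FPKM minimum, at 1.28 FPKM in WT against 2.23 FPKM in KD (log2 ratio 0.80). Of background genes with 1 to 10 FPKM in WT, 10.8% lay past 1.5-fold. Bin1, which encodes a membrane-shaping protein of the T-tubule, stood at 7.08 FPKM in WT against 10.6 FPKM in KD (log2 ratio 0.58). Pdlim3 stood at 119.8 FPKM in WT against 87.4 FPKM in KD (log2 ratio -0.46), and Numb had 11.5 and 8.41 FPKM (-0.45). The third lower gene, Dmd, was named after its values were seen, with 1.66 and 1.27 FPKM (-0.38). Among targets of RBM20, Ttn, Camk2d and Ldb3 did not lie past 25%, and RBM20 targets as a group were not compared with the others. Ttn, the giant spring of the sarcomere, stood at 9.49 FPKM in WT against 8.62 FPKM in KD (log2 ratio -0.14), Camk2d had 22 and 24.7 FPKM (0.17), and Ldb3 had 107 and 92.1 FPKM (-0.22). Tnnt2 (log2 ratio -0.03), Tpm1 (0.00) and Mef2d (0.05), whose exons are switched during muscle maturation, had nearly the same value in both groups.

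**Figure D4:**
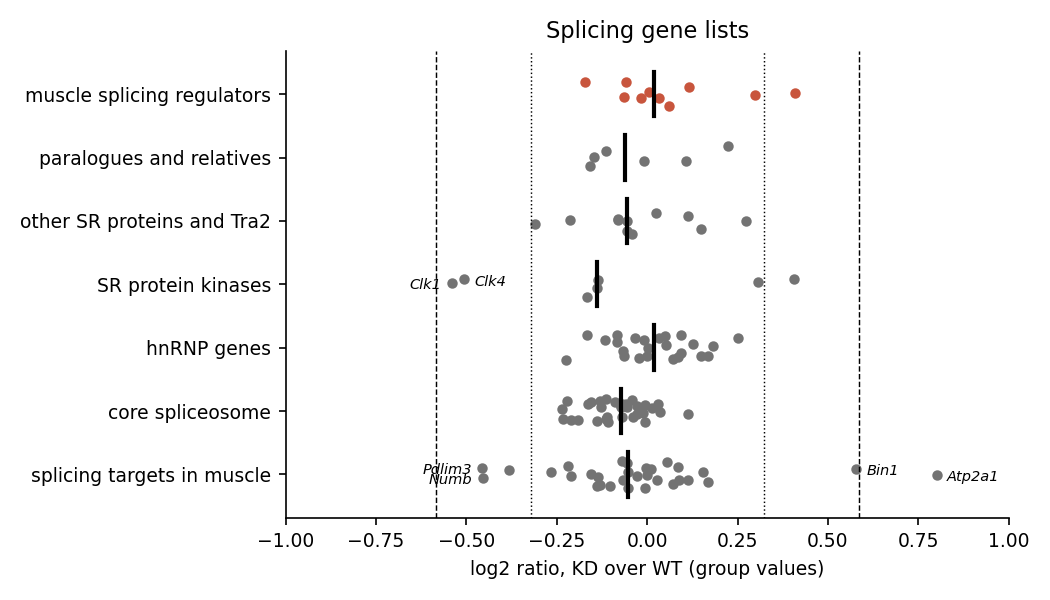
The log2 ratio of KD over WT for each gene with at least 1 FPKM in either group, 1 row per list of splicing genes, members in red; the vertical position within a row is arbitrary, black bars are medians, and dotted and dashed lines mark a 25% difference and 1.5-fold. The members lie between -0.17 and 0.41, and 28 of the 32 core spliceosome genes lie below 0.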

How the data were processed

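RNA was sequenced from ventricles of 3 WT and 3 KD embryos at E9.5, grouped by sample title. Libraries were made with the Smart-Seq2 protocol. The authors deposited a Cuffdiff table with FPKM values, 1 per group, where KD is named KO. TopHat, Bowtie2, Cuffdiff and build mm10 are named in the submitters' processing notes, and their versions are not given in the sources used here. The table also holds the authors' fold change, test score, p-value, q-value and status, which were not used. There were 0 columns of single embryos, so no model was fitted and the planned limma fit was not run.

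Log2 ratios of the group values were computed with no pseudocount over the 11606 genes with at least 1 FPKM in either group, 58 of which had 1 group at 0 and entered counts but no medians. Differences past 1.5-fold, and past 25% of the smaller value, were counted. Table starts count from 0, and 1 was added: of 20862 genes matched by symbol to GENCODE M21, 6292 starts were equal with 1 added and 682 without. All 192 listed genes were found, some under older symbols given by RefSeq (GRCm38.p6), and 1 further neural marker is not reported here. Members and lists were chosen with earlier results of these data known. Named genes were all members, the 2 highest and 2 lowest of each other splicing list among genes with at least 1 FPKM in both groups, those past 1.5-fold, and Ttn, Camk2d, Ldb3, Tnnt2, Tpm1 and Mef2d; other kinases and relatives were chosen after their values were seen. Counting was tested on simulated data. Alternatives were pseudocounts of 1 and 0.1 FPKM, groups scaled to the same sum, subtraction of the median ratio, a minimum of 5 FPKM, no filter, and a 2-fold threshold. Python 3.11.15, NumPy 2.4.6, pandas 2.3.3 and Matplotlib 3.10.9 were used.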

Additional observations from a re-analysis of the deposited data

How the results depend on the processing

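The count of members past 1.5-fold was 0 under every alternative, but none could have raised it: pseudocounts shrink ratios, the scalings shift every log2 ratio by at most about 0.03, a 2-fold threshold is stricter, and the members lie above both minimums. It therefore says nothing about stability. The count past 25% was 1, Mbnl2, under both scalings and both pseudocounts. The share of all genes past 1.5-fold ran from 3.57% with a minimum of 5 FPKM to 21.1% with no filter, and 2.90% lay past 2-fold. The median log2 ratio of the members lay between -0.01 and 0.02, and it fell below 0 only with the groups scaled to the same sum. The log2 ratio of Mbnl2 lay between 0.38 and 0.41 and that of Celf2 between 0.26 and 0.30 in the alternatives tried. Of the members, 1, Qk, changed sign, between -0.03 and 0.00. With no replicate values, a log2 value was counted as moved past 0.05. The log2 change in the ratio of Rbfox2 to Rbfox1 moved from 0.36 to 0.0378 with a pseudocount of 1 FPKM and to 0.25 with one of 0.1 FPKM, since Rbfox1 is far below 1 FPKM. No paired analysis was possible because each group has only 1 pooled value, and for the same reason no replicate was left out in turn. Unknown depth limits what the lowest values can show.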
